A study of Mus musculus with 48 samples.

Results

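The genes described here are 10 that carry the signal from low oxygen to blood vessels: the secreted ligands *Vegfa*, *Adm*, *Apln*, *Cxcl12* and *Angpt2*, the secreted endothelial product *Esm1*, the receptors *Kdr*, *Flt1* and *Tek*, and the co-receptor *Nrp1*. They were taken by symbol from the 19601 genes of the batch-corrected tables, all 10 were present, and all 10 were among the 14839 genes left after lowly counted ones were dropped. RNA sequencing had been done on the whole substantia nigra (SN), not the pars compacta alone, of 48 male C57Bl/6J mice, of which the authors kept 42 for the batch-corrected tables. At 121 days of age each mouse received an injection into the right striatum of α-synuclein (α-syn), either as the soluble monomer or as preformed fibrils (PFF), which seed aggregates, and the SN was taken 90 or 91 days later in 47 mice and 98 days later in 1, the monomer mouse at 11% O2 numbered 11. Mice then breathed 21% O2 or 11% O2, which gave 11 monomer mice at 21% O2, 9 monomer mice at 11% O2, 12 PFF-injected mice at 21% O2 and 10 PFF-injected mice at 11% O2. The labels name no genetic alteration, and the monomer mice at 21% O2 had the same surgery as the others. The sources used here differ on whether 11% O2 was breathed over the whole interval or only over its later part. Whole SN tissue mixes neurons, glia and vessels, so in these data fewer cells of a type and less RNA per cell cannot be told apart.

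When oxygen is short, hypoxia-inducible factors escape degradation and switch on genes that include *Vegfa*, vascular endothelial growth factor A. VEGF-A released by glia and neurons binds the tyrosine kinase receptors KDR (VEGFR2), which carries the growth signal in endothelial cells, and FLT1 (VEGFR1), which binds the ligand tightly and acts largely as a decoy, with NRP1 as co-receptor. ANGPT2 and its receptor TEK (TIE2), adrenomedullin (*Adm*), apelin (*Apln*) and the chemokine CXCL12 act on the same vessels, and *Esm1* is secreted by sprouting endothelial tip cells.

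Kept libraries held 12902996 to 17120921 gene counts. Mice fell into 3 batches, which the study tied to the date of tissue collection. Batch 1 had all 4 groups, batch 2 had no monomer mice at 11% O2 and batch 3 had no monomer mice at 21% O2, so the effect of oxygen in monomer mice was seen inside a single batch only in batch 1. Levels are given as TPM, a share of all transcripts that corrects for gene length and depth, from the batch-corrected table. Differences are log2 fold changes of the batch-corrected counts from edgeR's quasi-likelihood test with their standard errors (SE). The test gives no SE, so each was taken as the size of the log2 fold change over the square root of the test's F value. A gene was called where its Benjamini-Hochberg adjusted p over the 14839 genes was under 0.05 and its log2 fold change was past 0.25 in size.

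Breathing 11% O2 raised 7 of the 10 genes in monomer mice and 6 of the 10 in PFF-injected mice, and none was called lower in either. Ligands and receptors both rose: *Vegfa*, *Adm*, *Apln*, *Cxcl12*, *Kdr* and *Flt1* were called higher under both injections, and *Tek* in monomer mice. Over all genes tested, 4.68% were called higher and 2.55% lower at 11% O2 in monomer mice, and 0.438% higher and 0.142% lower in PFF-injected mice. The median log2 fold change of the 10 genes was 0.46 in monomer mice and 0.47 in PFF-injected mice, against -0.01 over all genes tested in both. In monomer mice *Vegfa*, *Adm*, *Cxcl12* and *Kdr* did not overlap in TPM between 21% and 11% O2, as 0.229% of tested genes did in this direction. *Vegfa*, *Apln*, *Cxcl12* and *Kdr* did not overlap in PFF-injected mice, as 0.0741% of tested genes did. Before the authors’ correction, which was told the groups, the monomer groups overlapped for *Adm* and *Kdr*. So did the PFF groups for *Cxcl12*. Among the kept mice the other genes named were apart before correction too. With the left-out mice some were not. The left-out PFF-injected mouse at 11% O2 numbered 2 had 109 TPM of *Vegfa*, 35.3 of *Apln* and 3.10 of *Kdr*. None of these was above the highest PFF-injected mouse at 21% O2. The left-out monomer mouse at 21% O2 had 23.5 TPM of *Cxcl12*, above the lowest kept monomer mouse at 11% O2 (20.6).

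**Figure D1:**
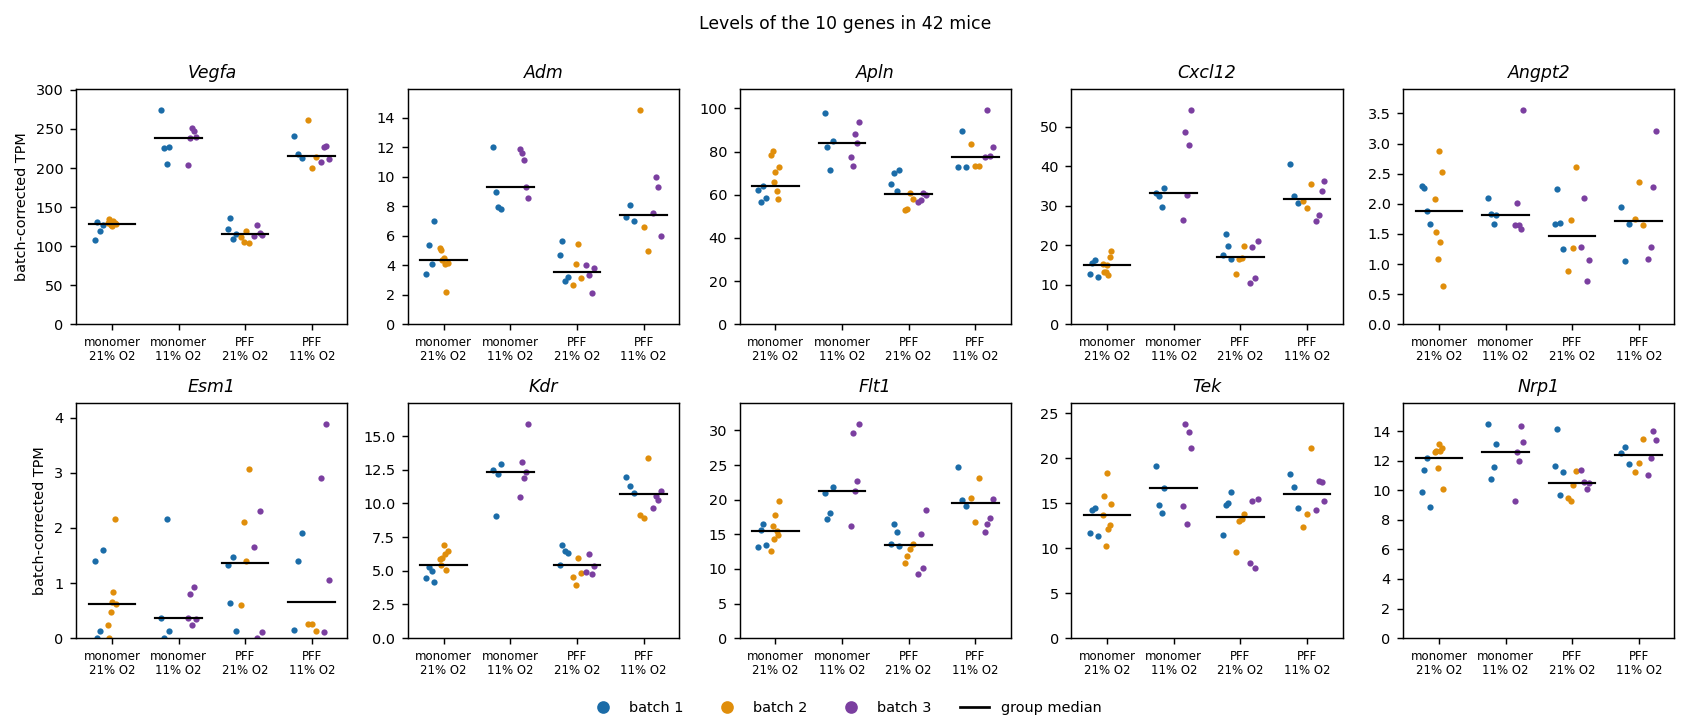
TPM of each of the 10 genes (batch-corrected table, linear axes starting at 0) in the 42 mice. Each point is 1 mouse, colored by batch, the groups are the 4 combinations of injection and oxygen, and the bar is the group median. *Vegfa* sat between 103 and 136 TPM in every mouse at 21% O2 and between 200 and 274 TPM in every mouse at 11% O2, whereas *Angpt2*, *Esm1* and *Nrp1* overlapped throughout.

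Bases upstream of the transcription start are shown for *Vegfa*, *Adm* and *Kdr*, a pair of ligands and the receptor that rose most clearly. They are the 250 bases before the RefSeq start in build GRCm38.p6, written 5′ to 3′ on the gene's strand, at chr17:46032378-46032627 (minus strand) for *Vegfa*, chr7:110627407-110627656 (plus strand) for *Adm* and chr5:75978456-75978705 (minus strand) for *Kdr*. Capitals mark ACGTG or GCGTG on either strand, the core letters of the hypoxia response element.
Vegfa: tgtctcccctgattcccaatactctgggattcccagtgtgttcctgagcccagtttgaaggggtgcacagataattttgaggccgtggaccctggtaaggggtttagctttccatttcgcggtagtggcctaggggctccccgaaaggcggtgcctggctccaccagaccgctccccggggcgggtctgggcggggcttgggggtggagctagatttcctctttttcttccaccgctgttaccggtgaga
Adm: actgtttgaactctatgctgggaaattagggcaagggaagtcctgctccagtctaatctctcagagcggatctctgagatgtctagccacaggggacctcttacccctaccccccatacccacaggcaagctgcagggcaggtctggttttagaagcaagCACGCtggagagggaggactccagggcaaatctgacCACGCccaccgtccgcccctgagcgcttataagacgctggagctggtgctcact
Kdr: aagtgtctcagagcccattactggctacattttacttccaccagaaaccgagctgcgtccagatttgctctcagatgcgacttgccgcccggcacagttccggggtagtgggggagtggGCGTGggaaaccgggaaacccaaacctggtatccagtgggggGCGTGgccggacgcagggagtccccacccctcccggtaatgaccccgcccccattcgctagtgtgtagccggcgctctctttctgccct
The *Vegfa* window held none of these letters, and the *Adm* and *Kdr* windows held 2 matches each. A second *Vegfa* start listed inside the gene, at chr17:46025164-46025413, had 2 matches in its window. Of the 9 genes with a window, 6 had a match in at least 1 window (*Vegfa*, *Adm*, *Esm1*, *Kdr*, *Flt1* and *Nrp1*), and *Apln*, *Cxcl12* and *Tek* had none. Over all genes with a window 41.5% had a match, so the letters are common, and a window without them says nothing of sites elsewhere. *Esm1* and *Nrp1* held a match and were not called, while *Apln* and *Cxcl12* were called and held none.

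*Vegfa* (chr17:46016993-46032369 in GRCm38, minus strand) was the most abundant of the 10 genes. Its lowest, median and highest TPM were 108, 129 and 135 in monomer mice at 21% O2 and 203.9, 238 and 274 in those at 11% O2. In PFF-injected mice they were 103, 115 and 136 at 21% O2 and 200, 216 and 262 at 11% O2. Every kept mouse at 11% O2 was above every kept mouse at 21% O2, whichever the injection. The log2 fold change was 0.89 (SE 0.050, adjusted p = 2.54e-17, edgeR) in monomer mice and 0.94 (SE 0.048, adjusted p = 5.41e-19, edgeR) in PFF-injected mice. Within single batches it was 0.94 in batch 1 for monomer mice and 0.87 to 1.08 over the 3 batches for PFF-injected mice.

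*Adm* (chr7:110627661-110629820, plus strand) encodes a peptide that widens vessels and tightens the endothelium. It was low, with 13 to 87 counts a mouse. TPM ran from 2.215 through a median of 4.34 to 7.00 in monomer mice at 21% O2 and from 7.81 through 9.31 to 12.0 at 11% O2. In PFF-injected mice the corresponding values were 2.15, 3.56 and 5.62 at 21% O2 and 4.97, 7.38 and 14.5 at 11% O2. Monomer groups were apart, and in PFF-injected mice 9 of 10 at 11% O2 lay above the highest at 21% O2. Before correction the monomer groups overlapped, with a highest of 6.33 TPM at 21% O2 and a lowest of 6.15 at 11% O2. The rise was 1.15 on the log2 scale in monomer mice (SE 0.163, adjusted p = 4.50e-06, edgeR) and 1.11 in PFF-injected mice (SE 0.161, adjusted p = 2.02e-05, edgeR). Within single batches the *Adm* call was not made (log2 fold change 0.85 in monomer mice of batch 1 and 0.76 to 1.30 in PFF-injected mice), on 3 to 4 mice a group.

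*Apln* (chrX:48025146-48034853, minus strand), the ligand of a receptor on endothelial cells, was abundant and rose little. Monomer mice had 56.6, 64.2 and 80.5 TPM (lowest, median and highest) at 21% O2 and 71.6, 83.8 and 97.9 at 11% O2. PFF-injected mice had 53.1, 60.4 and 71.3 TPM at 21% O2 and 72.8, 77.7 and 99.1 at 11% O2. The PFF groups were just apart, and the monomer groups overlapped. The rise was 0.34 on the log2 scale (SE 0.068, adjusted p = 6.35e-04, edgeR) in monomer mice and 0.40 (SE 0.065, adjusted p = 1.84e-04, edgeR) in PFF-injected mice. The monomer call was lost on the uncorrected counts without a batch term (0.19, adjusted p = 0.112, edgeR) and with batch and the endothelial marker level as covariates (0.26, adjusted p = 0.0925, edgeR), and the PFF call in each single batch.

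*Cxcl12* (chr6:117168535-117181367, plus strand) encodes a chemokine made by vessel cells that attracts cells bearing CXCR4. Monomer mice had 11.9, 15.1 and 18.4 TPM at 21% O2 and 26.5, 33.3 and 54.1 at 11% O2. PFF-injected mice had 10.54, 17.1 and 22.9 TPM at 21% O2 and 26.2, 31.8 and 40.5 at 11% O2. Mice at the 2 oxygen levels were apart under either injection, with the widest spread in monomer mice at 11% O2. Before correction the PFF groups overlapped among the kept mice, with a highest of 23.1 TPM at 21% O2 and a lowest of 22.5 at 11% O2. The rise was 1.36 on the log2 scale in monomer mice (SE 0.119, adjusted p = 4.60e-11, edgeR), the largest of the 10 genes, and 0.92 in PFF-injected mice (SE 0.113, adjusted p = 4.92e-07, edgeR). The monomer call held in 16 of 16 alternatives and the PFF call in 16 of 18.

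*Angpt2* and *Esm1* did not pass the test in any comparison. *Angpt2* (chr8:18690263-18741562, minus strand), the TIE2 ligand that loosens vessels, had median TPM of 1.88 and 1.82 in monomer mice at 21% and 11% O2 and 1.47 and 1.71 in PFF-injected mice, within an overall range of 0.629 to 3.55. Its oxygen effect was 0.12 (SE 0.216) in monomer mice and 0.24 (SE 0.212) in PFF-injected mice on the log2 scale. *Esm1* (chr13:113209659-113218098, plus strand) had 0 to 34 counts a mouse, 0 in 4 of the 42 mice and under 10 in 27, and a change of it was not detectable at this depth (log2 fold change -0.30, SE 0.677, in monomer mice and -0.01, SE 0.532, in PFF-injected mice).

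*Kdr* (chr5:75932827-75978458, minus strand), the main signalling receptor of VEGF-A, had the largest log2 fold change of the 3 receptors. Its lowest, median and highest TPM were 4.17, 5.40 and 6.88 in monomer mice at 21% O2 and 9.04, 12.4 and 15.9 in those at 11% O2. In PFF-injected mice they were 3.96, 5.41 and 6.90 at 21% O2 and 8.91, 10.7 and 13.4 at 11% O2. As with *Vegfa*, no mouse at 21% O2 reached the lowest mouse at 11% O2 in the corrected TPM. Before correction the highest of the kept mice at 21% O2 was 6.54 TPM in monomer mice and 7.51 in PFF-injected mice. The lowest at 11% O2 were then 6.46 and 7.57, so the monomer groups overlapped. The log2 fold change was 1.15 (SE 0.093, adjusted p = 5.50e-12, edgeR) in monomer mice and 0.97 (SE 0.089, adjusted p = 4.04e-10, edgeR) in PFF-injected mice. In single batches it was 1.31 in monomer mice and 0.85 to 1.16 in PFF-injected mice.

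*Flt1* (chr5:147561604-147726011, minus strand) rose by less. Gene counts do not separate its soluble from its membrane form. Monomer mice had 12.5, 15.4 and 19.8 TPM at 21% O2 and 16.3, 21.2 and 30.9 at 11% O2, and PFF-injected mice had 9.29, 13.4 and 18.6 at 21% O2 and 15.4, 19.5 and 24.7 at 11% O2. Groups overlapped, and 6 of 9 monomer mice and 6 of 10 PFF-injected mice at 11% O2 lay above the highest at 21% O2 of their injection. The log2 fold change was 0.52 (SE 0.112, adjusted p = 0.00128, edgeR) in monomer mice and 0.53 (SE 0.107, adjusted p = 0.00499, edgeR) in PFF-injected mice. Without the 5 monomer mice at 11% O2 of batch 3 it was 0.34 (SE 0.129) in monomer mice and no longer called (adjusted p = 0.0867, edgeR). In PFF-injected mice the *Flt1* call was lost on the uncorrected counts without a batch term (0.55, adjusted p = 0.145, edgeR) and in each single batch, with adjusted p of 0.0556 to 0.996 (edgeR), and it held in 14 of 18 alternatives.

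*Tek* (chr4:94739289-94874976, plus strand), the angiopoietin receptor, had 10.2, 13.7 and 18.4 TPM in monomer mice at 21% O2 and 12.7, 16.7 and 23.8 at 11% O2. PFF-injected mice had 7.80, 13.5 and 16.2 TPM at 21% O2 and 12.3, 16.04 and 21.1 at 11% O2. The groups overlapped under both injections. It was called in monomer mice, at 0.39 (SE 0.125, adjusted p = 0.0310, edgeR), and not in PFF-injected mice, at 0.33 (SE 0.121, adjusted p = 0.261, edgeR). The monomer call held in only 9 of 16 alternatives, in which the log2 fold change ran from -0.22 to 0.60. Among the losses were the fits without the monomer mouse at 11% O2 numbered 11 (0.36, adjusted p = 0.0657, edgeR) and without the batch 3 mice of that group (0.26, adjusted p = 0.305, edgeR). It was also lost when the uncorrected counts were fitted with a batch term instead (0.38, adjusted p = 0.109, edgeR).

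*Nrp1* (chr8:128358604-128503363, plus strand) was not called, and 80 of its exon bases are shared with the microRNA gene *Mir1903*. Its medians were 12.2 and 12.6 TPM in monomer mice at 21% and 11% O2 and 10.51 and 12.4 TPM in PFF-injected mice, and the oxygen effect was 0.09 (SE 0.072) and 0.21 (SE 0.069) on the log2 scale. The latter had an unadjusted p of 0.00458 and an adjusted p of 0.190 (edgeR).

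**Figure D2:**
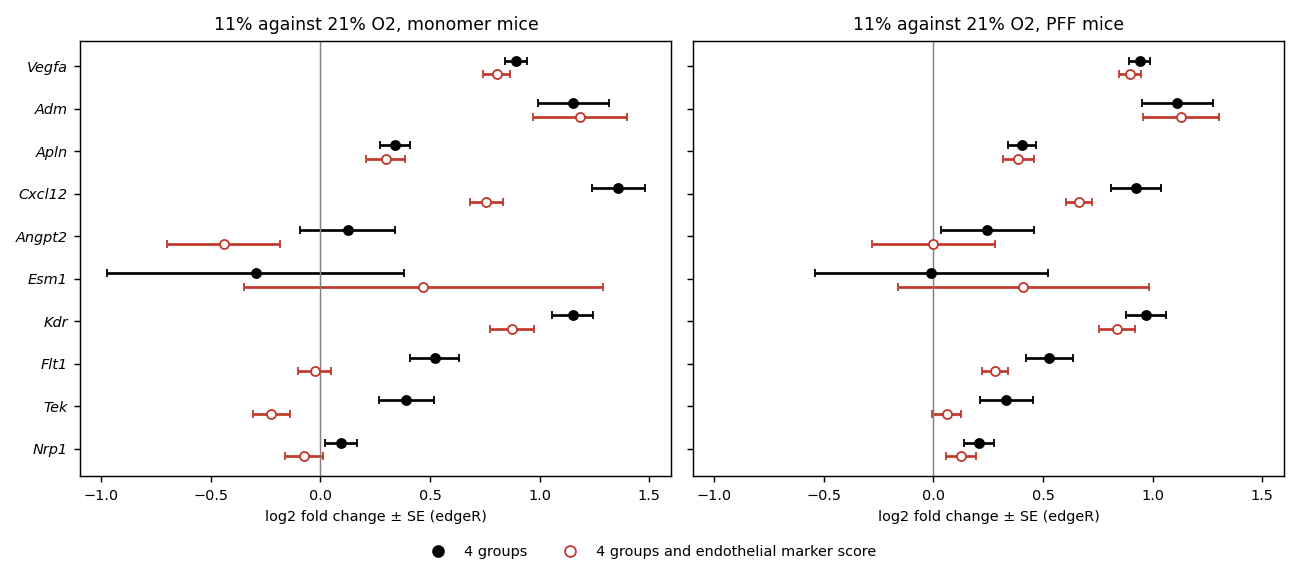
Log2 fold change of each of the 10 genes at 11% against 21% O2 (horizontal axis) in monomer mice (left) and PFF-injected mice (right), from edgeR on batch-corrected counts. Filled points are the estimates from the 4 groups, open points those with the endothelial marker level as a covariate, and bars are 1 SE to each side. For the filled points *Cxcl12*, *Adm*, *Kdr* and *Vegfa* lie at 0.89 or above in both panels, *Flt1*, *Apln* and *Tek* lie lower, from 0.33 to 0.53, and the bar of *Esm1* is the widest.

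No call was made for injection among the 10 genes. At 21% O2, PFF-injected mice against monomer mice gave 0 of 10 called by edgeR, DESeq2 or limma, against 3.7% of all genes tested by edgeR, and 2 had an unadjusted p under 0.05. These were *Vegfa*, at -0.11 (SE 0.047, adjusted p = 0.149, edgeR), and *Cxcl12*, at 0.24 (SE 0.114, adjusted p = 0.203, edgeR). At 11% O2 the same comparison gave 0 of 10 by all 3 tools, as for 0% of all genes by edgeR, and 0 with an unadjusted p under 0.05. The log2 fold changes at 11% O2 ran from -0.27 for *Adm* (SE 0.159) to 1.04 for *Esm1* (SE 0.635).

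Whether oxygen acted differently under the 2 injections was tested by the interaction, the oxygen effect in PFF-injected mice minus that in monomer mice. None of the 10 genes was called by edgeR, DESeq2 or limma, against 2.14% of genes tested by edgeR. *Cxcl12* alone had an unadjusted p under 0.05, with an interaction of -0.43 (SE 0.165, unadjusted p = 0.0116, adjusted p = 0.163, edgeR). For *Vegfa* it was 0.05 (SE 0.070), for *Kdr* -0.18 (SE 0.129) and for *Flt1* 0.01 (SE 0.155). *Tek*, called under 1 injection and not the other, had an interaction of -0.06 (SE 0.174, adjusted p = 0.919, edgeR), so its 2 effects were not shown to differ. These comparisons share groups of mice and are not independent of each other.

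Levels of the receptors and of *Cxcl12* also differed between batches before the authors’ correction. Among monomer mice at 11% O2, mean *Flt1* was 13.9 TPM in the 4 mice of batch 1 and 30.1 in the 5 of batch 3, mean *Kdr* 8.27 and 15.5, mean *Tek* 11.1 and 22.9 and mean *Cxcl12* 23.4 and 47.0, whereas mean *Vegfa* was 215.3 and 211.4. In monomer mice of batch 1 alone *Vegfa*, *Apln*, *Kdr* and *Cxcl12* were called, with *Cxcl12* at 1.17 and *Flt1* at 0.40 (SE 0.122, adjusted p = 0.0901, edgeR). In PFF-injected mice, whose batches each held both oxygen levels, the batch values ran from 0.82 to 0.98 for *Cxcl12*, from 0.39 to 0.71 for *Flt1*, from 0.15 to 0.44 for *Tek* and from 0.26 to 0.53 for *Apln*. All 7 genes called in monomer mice were above 0 in every batch in which the oxygen effect could be taken.

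**Figure D3:**
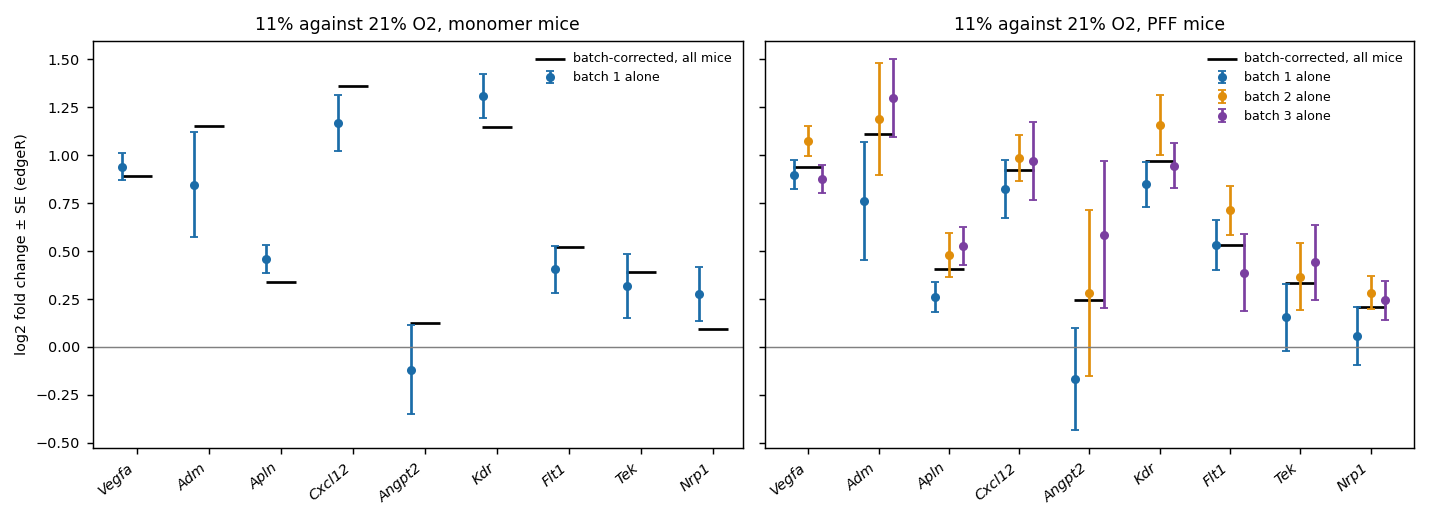
Log2 fold change at 11% against 21% O2 (vertical axis) for 9 of the genes (*Esm1*, too low to fit well, is left out), taken within single batches from the counts before correction (edgeR), for monomer mice (left, batch 1 only) and PFF-injected mice (right, batches 1 to 3). Points are colored by batch with bars of 1 SE, and the black dash is the value from all mice after correction. *Vegfa* lies between 0.87 and 1.08 in every batch, and *Angpt2* from -0.17 to 0.59 in PFF-injected mice.

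Markers of vessel cells moved with oxygen as well. Of 10 endothelial markers (*Cldn5*, *Pecam1*, *Cdh5* and others, none of them among the 10 genes described here), 9 were called higher at 11% O2 in monomer mice (median 0.54 on the log2 scale) and 1 in PFF-injected mice (median 0.25). Their summed TPM ran from 327 to 444 in monomer mice at 21% O2, 429 to 731 at 11% O2, 298 to 503 in PFF-injected mice at 21% O2 and 440 to 586 at 11% O2. Of 7 pericyte markers 6 and 3 were called higher, and of 3 tested arterial smooth muscle markers 2 and 0. All 5 red cell markers were called higher in monomer mice (median 1.32 on the log2 scale) and none in PFF-injected mice (median 0.79), with median summed TPM of 1036 and 2068 at 21% and 11% O2 in monomer mice and 1324 and 1858 in PFF-injected mice. The part of red cells in the 10 genes’ values was not tested. Of 8 oligodendrocyte markers 2 were called higher in monomer mice and none in PFF-injected mice. The 8 astrocyte markers and 8 microglia markers were not called, with adjusted p of at least 0.0509 (edgeR) for oxygen under either injection.

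*Flt1*, *Tek* and *Cxcl12* followed the endothelial markers from mouse to mouse, and *Vegfa*, *Adm* and *Apln* did so little. Over the 42 mice, as deviations from the mean of each group and batch, the Pearson correlation with the mean log2 level of the 10 endothelial markers was 0.88 for *Flt1*, 0.87 for *Tek*, 0.87 for *Cxcl12*, 0.56 for *Kdr*, 0.34 for *Vegfa*, 0.08 for *Apln* and -0.01 for *Adm*, given as a description. For *Nrp1*, *Angpt2* and *Esm1* the correlation with this marker level was 0.46, 0.45 and -0.40. With that marker level as a covariate the oxygen effect in monomer mice was -0.03 for *Flt1* (SE 0.075) and -0.22 for *Tek* (SE 0.085), neither called. It remained called for *Kdr* at 0.87 (SE 0.102), for *Vegfa* at 0.80 (SE 0.062), for *Cxcl12* at 0.76 (SE 0.076), for *Adm* at 1.19 (SE 0.214) and for *Apln* at 0.30 (SE 0.089), and the *Apln* call was lost once batch was added as well. In PFF-injected mice all 6 calls remained, with *Flt1* at 0.28 (SE 0.060), and the *Cxcl12* interaction was -0.09 (SE 0.086). *Flt1* was then called lower in PFF-injected than in monomer mice at 21% O2, at -0.32 (SE 0.055, adjusted p = 2.19e-04, edgeR), with an interaction of 0.31 (SE 0.083, adjusted p = 0.0353, edgeR). The part of vessel cell number in these values was not tested.

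The balance of the VEGF receptors within each mouse shifted at 11% O2. Log2 of *Kdr* over *Flt1* (TPM) had a lowest, median and highest of -1.72, -1.56 and -1.09 in monomer mice at 21% O2 and -1.18, -0.83 and -0.57 at 11% O2. In PFF-injected mice it had -1.78, -1.26 and -0.92 at 21% O2 and -1.15, -0.82 and -0.64 at 11% O2. *Flt1* exceeded *Kdr* in every mouse, by less at 11% O2, with some overlap. The difference of the means was 0.65 in monomer mice (exact two-sided permutation test, p = 2.38e-05, adjusted p = 3.81e-04 over 16 ratio tests) and 0.44 in PFF-injected mice (two-sided permutation test, p = 8.00e-05, adjusted p = 5.24e-04). In batch 1 before correction the difference was 0.90 in monomer mice (4 against 4, exact permutation test, p = 0.0286, the smallest this size allows) and 0.33 in PFF-injected mice (3 against 4, exact permutation test, p = 0.114). Between injections at 21% O2 the difference was 0.20, which did not pass (permutation test, adjusted p = 0.115), and before correction it was 0.37 in batch 1 (exact permutation test, p = 0.0286, 4 against 4) and 0.11 over all 48 mice (permutation test, adjusted p = 0.459).

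**Figure D4:**
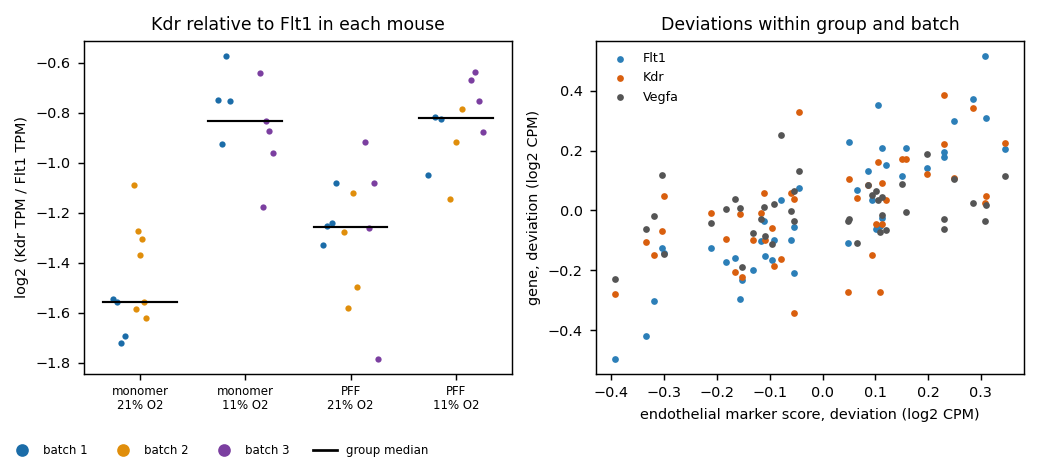
Left, log2 of *Kdr* over *Flt1* (TPM) in each of the 42 mice by group, colored by batch, with the group median as a bar. Right, deviation of *Flt1*, *Kdr* and *Vegfa* from the mean of group and batch (log2 counts, scaled for depth) against that of the mean endothelial marker level in the same mice. The medians were -1.56 and -1.26 at 21% O2 and -0.83 and -0.82 at 11% O2 in monomer and PFF-injected mice, and the points on the right follow the marker level with r of 0.88 for *Flt1*, 0.56 for *Kdr* and 0.34 for *Vegfa*.

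*Adm* rose against the gene for its receptor *Calcrl*, which was not itself called for oxygen (0.28, adjusted p = 0.0746, in monomer mice and 0.14, adjusted p = 0.676, in PFF-injected mice, edgeR). Log2 of *Adm* over *Calcrl* was higher at 11% O2 by 0.93 in monomer mice (exact permutation test, adjusted p = 5.24e-04) and by 0.96 in PFF-injected mice (permutation test, adjusted p = 5.24e-04). *Angpt2* against *Angpt1*, another gene of the angiopoietin system, differed by 0.18 and 0.21. Against its receptor *Tek*, *Angpt2* differed by -0.20 and -0.09, and none of these passed. In all 4 of 16 ratio tests passed. Over all 48 mice before correction 5 passed, the fifth being *Adm* over *Calcrl*, lower by -0.53 in PFF-injected than in monomer mice at 21% O2 (permutation test, adjusted p = 0.0276), where the corrected table gave -0.41 (permutation test, adjusted p = 0.0870).

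Across mice of 1 group, *Cxcl12*, *Flt1* and *Tek* varied together. Of 180 correlations (45 pairs of genes in 4 groups) 6 passed by Pearson's r with a permutation test adjusted over the 180, all of them positive, and 2 by Spearman's rho. *Cxcl12* and *Flt1* had r = 0.93 (rho 0.97, adjusted p = 0.00496 and 0.0149, exact permutation test) in the 9 monomer mice at 11% O2. The same pair had r = 0.94 (rho 0.92, adjusted p = 0.00180 and 0.0149, permutation test) in the 12 PFF-injected mice at 21% O2 and r = 0.89 (rho 0.85, adjusted p = 0.0216 and 0.0870, permutation test) in the 10 at 11% O2. The others were *Cxcl12* with *Tek* (r = 0.90) and *Flt1* with *Tek* (r = 0.86) in PFF-injected mice at 21% O2 and *Kdr* with *Tek* (r = 0.88) in those at 11% O2. Without the 2 mice farthest from the median on the first gene, r for these 6 was 0.74 to 0.88 and none passed the adjusted test on the fewer mice left. As deviations within batch, only *Cxcl12* with *Flt1* in PFF-injected mice at 21% O2 passed (r = 0.95, adjusted p = 0.0162, permutation test).

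*Vegfa* did not pass with either of its receptors in any group. Its r with *Kdr* was 0.50 and 0.32 in monomer mice at 21% and 11% O2 and 0.68 and 0.09 in PFF-injected mice, with adjusted permutation p from 0.220 to 0.903.

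Pooled as deviations within group and batch over the 42 mice, 17 of 45 pairs passed by Pearson's r (permutation within group and batch, adjusted over 45) and 18 by Spearman's rho. The strongest were *Cxcl12* with *Flt1* (r = 0.87), *Flt1* with *Tek* (r = 0.74), *Cxcl12* with *Tek* (r = 0.73), *Kdr* with *Flt1* (r = 0.68) and *Kdr* with *Tek* (r = 0.62). Among the ligands, *Vegfa* and *Adm* had r = 0.55 (rho 0.52, adjusted p = 0.0119 and 0.0110) and *Vegfa* and *Apln* had r = 0.43 (rho 0.46, adjusted p = 0.0175 for both). *Vegfa* and *Kdr* had r = 0.30 (rho 0.35, adjusted p = 0.284 and 0.113). The 3 negative pairs that passed by Pearson's r each involved *Esm1*, with *Tek* (r = -0.48), *Apln* (r = -0.44) and *Vegfa* (r = -0.39). *Esm1* had low counts, and their part in these pairs was not tested. After the endothelial marker level was removed 0 of 45 passed. *Flt1* with *Tek* then had r = -0.12 and *Cxcl12* with *Tek* r = -0.15, while *Vegfa* with *Adm* had r = 0.59 (adjusted p = 0.0648) and *Kdr* with *Flt1* r = 0.48 (adjusted p = 0.0754).

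**Figure D5:**
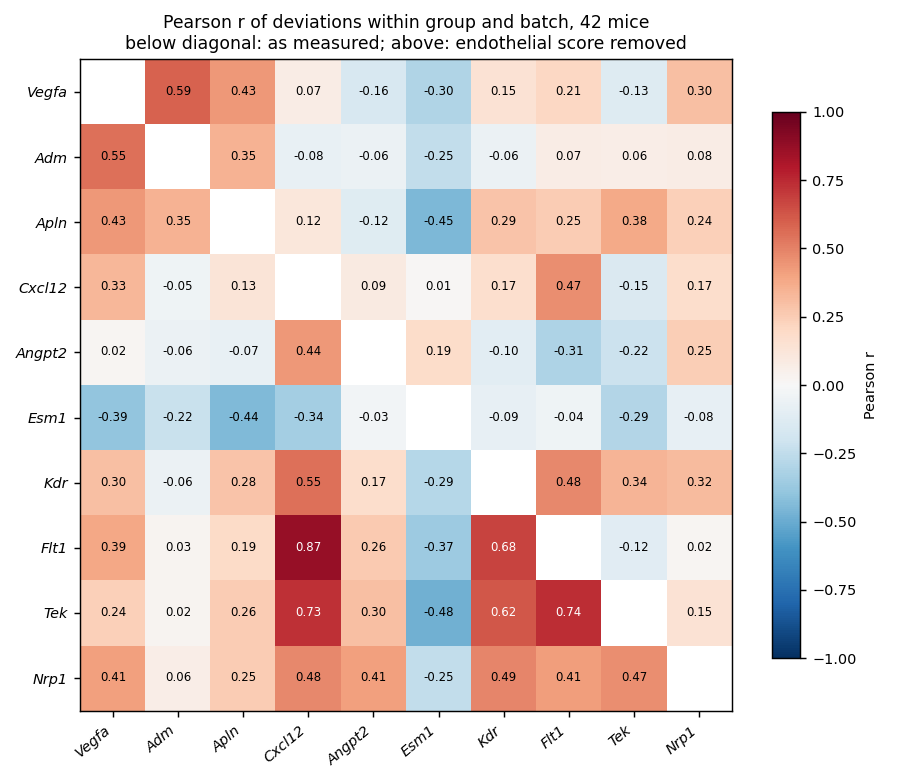
Pearson r between each pair of the 10 genes over 42 mice, as deviations from the mean of group and batch (counts before correction). Cells under the diagonal give r as measured and cells above it give r after the endothelial marker level was removed, on a color scale from -1 to 1. *Cxcl12*, *Flt1* and *Tek* form a block with r of 0.73 to 0.87 under the diagonal, and their values above it are -0.15, -0.12 and 0.47.

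Lists of other genes in the same pathways were read from the fit of all genes. Of 64 listed genes 60 were tested, of which 15 were called higher and 1 lower at 11% O2 in monomer mice, 2 higher in PFF-injected mice, 3 higher in PFF-injected mice at 21% O2 against monomer mice, and 0 between injections at 11% O2. The share of all tested genes called higher was 4.68%, 0.438%, 2.29% and 0% in these 4 comparisons, so the count for injection at 21% O2 was near the background. Of 11 other VEGF ligands, receptors and co-receptors only *Flt4*, the receptor of VEGF-C, was called, at 0.35 (SE 0.097) in monomer mice and 0.45 (SE 0.093) in PFF-injected mice. *Vegfb*, another VEGF ligand, with medians of 138 to 146 TPM in the 4 groups, had -0.01 (SE 0.061) and 0.03 (SE 0.058).

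Of 7 tested genes of the angiopoietin system *Ptprb*, a phosphatase that restrains TIE2, was called in monomer mice (0.67, SE 0.141) and none in PFF-injected mice, and *Angpt1* had -0.01 and 0.04. *Cxcr4*, the receptor of CXCL12, was called higher at 11% O2 in monomer mice (0.74, SE 0.151) and in PFF-injected mice at 21% O2 against monomer mice (0.57, SE 0.143), and it was the 1 called of 5 tested receptor genes for apelin, adrenomedullin and CXCL12. The apelin receptor gene *Aplnr* did not pass the filter. Of 19 tested tip cell and Notch genes 8 were called higher in monomer mice, among them *Mcam* (0.69, SE 0.083), *Cd34* (0.57, SE 0.094), *Nid2* (0.93, SE 0.155) and *Adgrl4* (0.63, SE 0.141), a receptor of endothelial cells, and the Notch target *Hey2* was lower (-0.36, SE 0.093). In PFF-injected mice *Notch4* alone of these was called (0.47, SE 0.106). *Mcam* was the 1 of 60 with a called interaction (-0.51, SE 0.114, adjusted p = 0.0101, edgeR). Over all genes tested 2.14% had one, so this count was near the background. Of 18 other secreted factors and vessel enzymes 4 were higher in monomer mice, *Adamts1* (0.75), *Nos3* (0.46), *Bmp4* (0.73) and *Tgfb1* (0.32), and none in PFF-injected mice.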

How the data were processed

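RNA of whole SN from 48 mice was enriched with oligo(dT) beads and sequenced. Per the labels and methods, the authors aligned reads to mm10 with STAR (2.7.5a), removed duplicate reads, counted read pairs with featureCounts (2.0.1) without a strand setting being stated, left out 6 mice as outliers, kept protein-coding genes and corrected the counts for batch with ComBat-seq, told the groups. The deposited tables give whole-number counts and TPM for each mouse, before correction (48 mice, 55385 genes) and after (42 mice, 19601 genes). Such correction can narrow the spread between mice, so p-values from corrected counts may be too small.

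Corrected counts were filtered (filterByExpr, 14839 genes), scaled by TMM and tested with edgeR (4.0.16, R 4.3.3) quasi-likelihood in 1 fit of the 4 groups without a batch term, with Benjamini-Hochberg adjustment. The edgeR p-values set differences between groups against the variation between mice left in the counts fitted. Within-mouse log2 TPM ratios and correlations across mice were tested by permutation, exact or with 100000 resamples, which can give no p under 1e-05. Correlations used edgeR log2 counts scaled for depth. Alternatives were DESeq2 (1.42.0), limma (3.58.1) on log2(TPM + 1), other filters, counts before correction with batch, single batches, a replicate block and an endothelial marker covariate. Others left out the monomer mouse at 11% O2 numbered 11, or the batch 3 mice of its group. No other mouse was left out singly in these fits. The fitting script was tested on simulated data. Gene positions are from GENCODE vM21, and upstream sequences from RefSeq (GRCm38.p6), where 9 of the 10 genes matched. The 10 genes, marker lists and pathway lists were chosen with earlier results of these data known. Named pathway genes are at most 4 called genes a list, by smallest p. *Vegfb*, *Angpt1*, *Calcrl*, *Aplnr*, *Hey2* and *Notch4* were named after their values were seen.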

Additional observations from a re-analysis of the deposited data

Results flagged for a closer look

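Of 20 groups of 9 or 10 mice checked for a value far from the rest, 3 stood out, where chance gives about 1 in 20. *Angpt2* in the monomer mouse at 11% O2 numbered 11 was 3.549 TPM against 2.103 in the next mouse, a gap of 0.7351 of the range of the group. This mouse was the only one of 48 taken 98 days after injection. Without it the oxygen effect of *Angpt2* in monomer mice was -0.03 on the log2 scale, and the *Tek* call was lost. *Esm1* in the monomer mouse at 11% O2 numbered 3 was 2.169 TPM against 0.9279 in the next. *Adm* in the PFF-injected mouse at 11% O2 numbered 6 was 14.49 TPM against 9.973 in the next.

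The authors left 6 mice out of the corrected tables, 5 of them at 11% O2. Before correction, the number of these 5 whose TPM lay above every kept mouse at 21% O2 of the same batch was 4 for *Vegfa*, 5 for *Adm*, 5 for *Cxcl12*, 4 for *Angpt2*, 4 for *Kdr*, 4 for *Flt1*, 4 for *Tek*, 5 for *Nrp1*, 3 for *Apln* and 2 for *Esm1*. The exception for *Vegfa*, *Kdr*, *Flt1* and *Tek* was the PFF-injected mouse numbered 2, whose library held 3134594 counts and had 109 TPM of *Vegfa*, 3.10 of *Kdr*, 5.22 of *Flt1* and 3.69 of *Tek*. The other left-out mouse, a monomer mouse at 21% O2 numbered 10, was also above every kept mouse at 21% O2 of its batch for *Kdr* (10.1 TPM), *Flt1* (20.9), *Tek* (18.8), *Cxcl12* (23.5), *Angpt2* (5.68), *Nrp1* (14.1) and *Esm1* (2.02), and not for *Vegfa* (116), *Adm* (4.82) or *Apln* (56.6).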

How the results depend on the processing

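Called values of the 10 genes were recomputed under other filters, scalings, tools and samples: of 220 values 194 kept their direction and call, 22 kept the direction only and 4 reversed. *Vegfa* and *Kdr* stayed called in every alternative run. The number called in monomer mice was 4 in batch 1 alone and 4 with batch and endothelial markers as covariates (an alternative chosen after seeing the data), and in PFF-injected mice 2, 3 and 2 in batches 1, 2 and 3 alone, each with fewer mice. With the endothelial covariate alone or with batch, 1 gene (*Flt1*) was called between injections at 21% O2, and 1 (*Flt1*) in the interaction with the covariate alone. The share of all genes called in these alternative fits is not given here. The counts called in single batches and with covariates therefore have no background beside them. The reversed values were the oxygen effects in monomer mice of *Flt1*, -0.02571 and -0.03506, and of *Tek*, -0.2241 and -0.2165, with the endothelial covariate alone and with batch, none called. The cause was not tested.

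Values not called numbered 602 under the alternatives, of which 3 became called and 61 changed sign without a call. No ratio test passed in batch 1 alone (0 of 16), and 5 passed over 48 mice before correction. With 4 against 4 mice the exact permutation test gives no p under 0.0286. With so few mice no ratio test of batch 1 could pass the adjustment over 16, so that count decides nothing. The batch 1 difference in *Kdr* over *Flt1* between oxygen levels was 0.90 in monomer mice and 0.33 in PFF-injected mice. Correlations within a group that passed numbered 0 without 2 mice, 1 within batch and 0 with the endothelial level removed, and within group and batch 0 with it removed.

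A replicate block left 7, 6, 0, 0 and 0 genes called in the 5 comparisons, again with no share of all genes beside these counts. The paper describes matching mice between groups by weight, age, delivery date and, where it could, cage. Whether the replicate number marks these matches was not known. Same-numbered mice of both PFF groups shared a batch, as did numbers 1 to 4 of all groups. Their correlation after correction (r over 0.1 in 21 of 54 pairs, median 0.0033) cannot show whether mice were matched. The block was not used in the main fit, as in the study.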

Other observations

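As deviations within group and batch over 42 mice, the genes whose level was most like that of *Vegfa* among 14824 compared were *Cd300a* (r = 0.77), *Gpatch8* (0.69), *Folh1* (0.68), *Pdzd7* (0.68) and *Mccc1* (0.68). For *Kdr* they were *Cd151* (r = 0.74), *Med20* (0.73), *Pltp* (0.73), *Dnajc21* (0.71) and *Aifm1* (0.71). These are the highest of many correlations and are given as a description with no test.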
